A study of Homo sapiens with 12 samples.

Results

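CHD8-depleted and control T47D-MTVL cells were compared in the absence of hormone. The comparison comprised the 6 arrays whose titles name the vehicle, out of 12 arrays in all. T47D-MTVL is a line derived from the T47D breast cancer cell line that carries 1 copy of the MMTV promoter, and, per the methods, a luciferase gene behind it. The cells were transfected with a control siRNA (siCt, 3 arrays) or with an siRNA against CHD8 (siCHD8, 3 arrays), kept for 48 h in medium without serum or phenol red, and then given the ethanol vehicle (EtOH) for 6 h. The other 6 arrays, 3 siCt and 3 siCHD8, received 10 nM of the synthetic progestin R5020 for the same 6 h. The titles call the 3 arrays of a condition biological replicates; nothing says that they came from separate cultures, so p-values measure the spread between these RNA samples. The methods give a single siRNA sequence against CHD8 for these transfections. The study also reports similar results with another CHD8 siRNA, by RT-qPCR of several progesterone-dependent genes. No array title names that siRNA. On these arrays a transcript lowered through another target of the siRNA therefore cannot be told apart from one lowered through loss of CHD8. RNA came from whole cultures, in which a smaller share of cells making a transcript cannot be told apart from less of it in each cell.

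CHD8 is an ATP-dependent chromatin remodeler of the chromodomain helicase family. It uses ATP hydrolysis to move nucleosomes and is found at active promoters in proliferating cells. In serum-deprived cells given vehicle, the study found few CHD8 binding sites, and proposes that serum deprivation strongly lowers its association with chromatin. CHD8 is also known as a partner of beta-catenin, of p53 and of the E2F-driven genes that take cells from G1 into S phase. Cells without serum and without steroid receive few growth signals, so the vehicle comparison asks what CHD8 depletion changes before any hormone is given.

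The values are log2 intensities per probe set, a group of array probes summarised to 1 value, and a difference of 1 is a doubling. The median log2 intensity of the 6 vehicle arrays lay between 4.57 and 4.62. Their replicates correlated at a mean r of 0.989 to 0.992 across probe sets, against 0.995 for the R5020 arrays, and siCt EtOH replicate 3 stood apart from the other arrays on the third principal component. The median SD between replicates was 0.153 in siCt EtOH and 0.169 in siCHD8 EtOH, against 0.117 and 0.110 in the corresponding R5020 conditions. The 22 luminal epithelial markers had a mean log2 level of 8.90 to 9.03 on the siCt EtOH arrays and of 8.85 to 9.00 on the siCHD8 EtOH arrays. The 9 measured blood and endothelial markers lay between 2.07 and 2.19 and the 10 fibroblast markers between 2.64 and 2.82, and their ranges overlapped between the groups.

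The target of the siRNA is given first. CHD8 (probe set 7977693) had log2 levels of 5.70, 5.71 and 5.91 in siCt EtOH and of 5.42, 5.11 and 5.04 in siCHD8 EtOH. Each depleted array lay below each control array, and siCHD8 EtOH replicate 1 kept the most CHD8 signal. The mean signal was 66.9% of the control, a log2 difference of -0.58 (SE 0.13, 95% interval -0.85 to -0.31). The adjusted p was 0.0711 by limma, which missed the threshold over all probe sets. The unadjusted p, given because CHD8 is the 1 targeted gene, was 0.000354 by limma. Over the alternatives the adjusted p of CHD8 by limma ran from 0.0372 to 0.405. Per the methods, the knockdown of CHD8 was also checked by RT-PCR and Western blotting. On the R5020 arrays the log2 difference was -0.62. Of the 8 other CHD family genes, CHD4 was the lowest, with a log2 difference of -0.20 (adjusted p = 0.50 by limma), and CHD1 the highest, with 0.24 (adjusted p = 0.53). None of them was called.

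**Figure D1:**
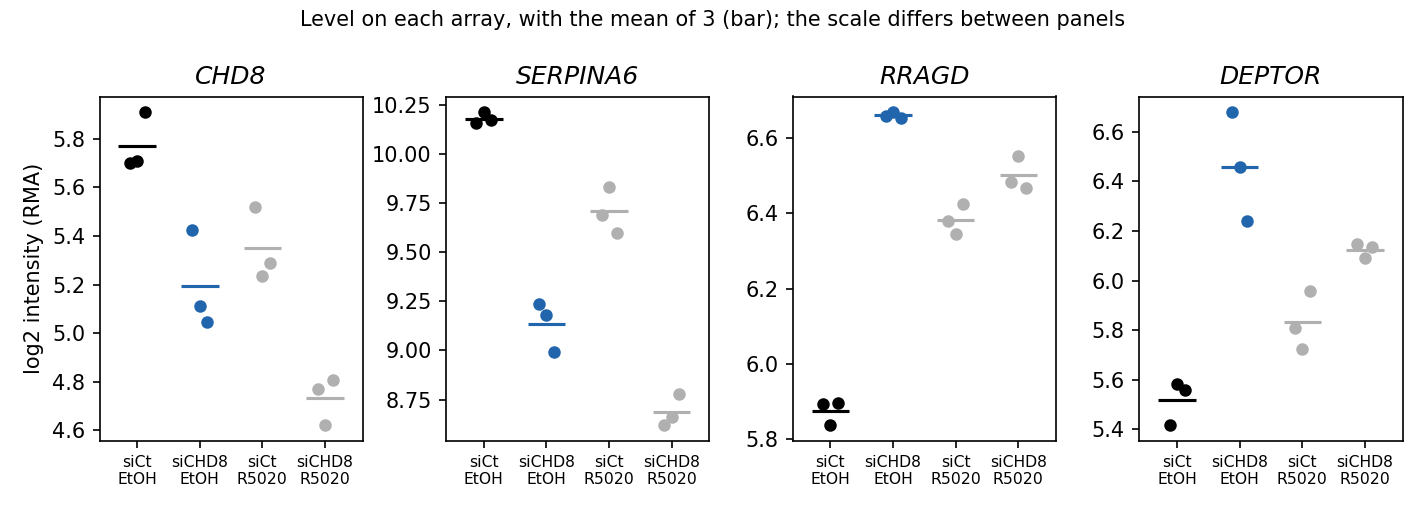
Log2 intensity (vertical axis, a separate scale for each panel) of CHD8, SERPINA6, RRAGD and DEPTOR on each of the 12 arrays, with the mean of the 3 arrays as a bar; black marks siCt EtOH, blue siCHD8 EtOH and grey the R5020 arrays. In vehicle the siCHD8 arrays lie below the siCt arrays for CHD8 and SERPINA6 and above them for RRAGD and DEPTOR.

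Of 21214 probe sets tested, 62 differed between siCHD8 and siCt in vehicle at an adjusted p under 0.05 (limma fit of all 12 arrays), which is 0.292% of those tested. They are the called probe sets below: 38 were lower (0.179%) and 24 higher (0.113%) after CHD8 depletion. At the limits the study used for hormone genes, an adjusted p under 0.01 and a change over 1.5-fold, 10 remained (0.0471%), namely SERPINA6, ISYNA1, CDC20B, UPK3B and ASS1 among the lower and GPNMB, DEPTOR, SAT1, RRAGD and MEAF6 among the higher. The changes were small. The size of the log2 difference ran from 0.51 to 1.08, 53 probe sets changed over 1.5-fold, and 2 changed over 2-fold, VGLL1 and SERPINA6. On all 62 the 3 siCHD8 arrays lay beyond the 3 siCt arrays, as they did on 8.06% of all probe sets in the lower and on 5.63% in the higher direction. The median log2 difference over all probe sets was -0.01 and the median SE 0.13.

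The spread behind these tests was estimated from all 12 arrays. A limma fit of the 6 vehicle arrays alone called 0 probe sets, with a lowest adjusted p of 0.0986 for SERPINA6; 1638 had an unadjusted p under 0.05 there, and all 62 were among them. Leaving out 1 of the 6 vehicle arrays kept between 11 of the 62 (without siCt EtOH replicate 1) and 32 (without siCHD8 EtOH replicate 3). The 9 called without any single one of these arrays were SERPINA6, ISYNA1, CDC20B, UPK3B, GPNMB, DEPTOR, RRAGD, CRYM and MEAF6, while 16 were lost whichever array was left out.

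**Figure D2:**
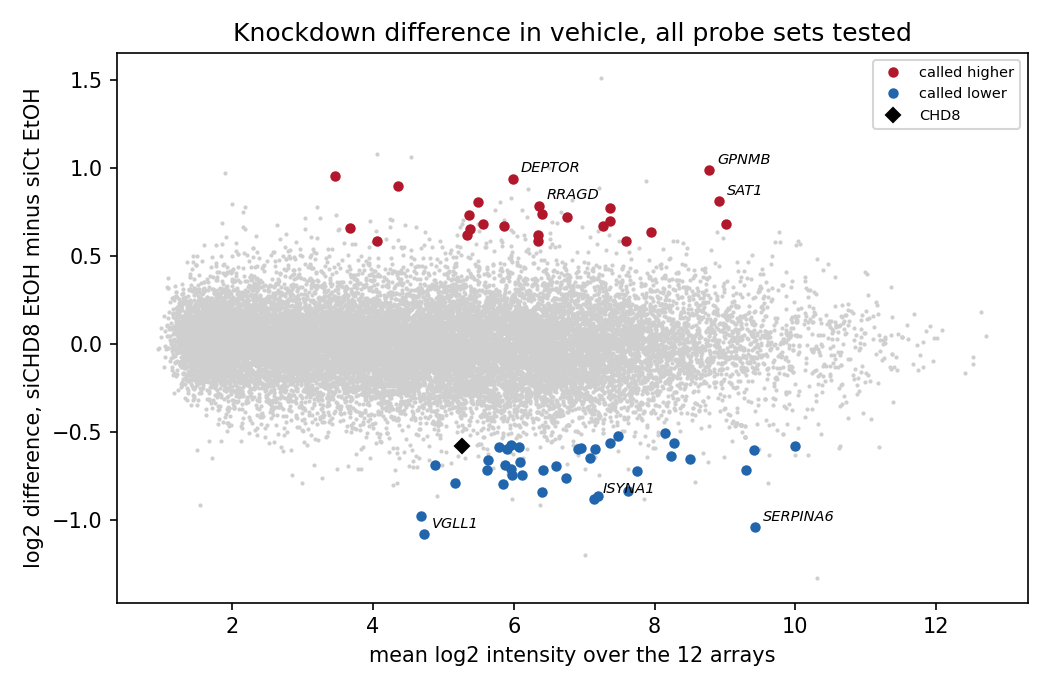
Log2 difference, siCHD8 EtOH minus siCt EtOH (vertical axis), against the mean log2 intensity over the 12 arrays (horizontal axis) for the 21214 probe sets tested, with called probe sets in colour and CHD8 as a black diamond. Called genes span dim and bright probe sets, and a few grey points differ more, ZNF737 by 1.51 among them, with a larger SE.

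Among probe sets with 1 symbol, 2 differed more than any called one without passing the test, and were picked after their values were seen. ZNF737, a zinc finger gene, had log2 levels of 6.91, 6.99 and 4.58 in siCt EtOH and of 7.89, 7.69 and 7.43 in siCHD8 EtOH, a log2 difference of 1.51 (adjusted p = 0.155 by limma), with siCt EtOH replicate 3 far below its group. The small nucleolar RNA gene SNORD41 had a log2 difference of -1.33 (adjusted p = 0.147) with depleted arrays from 8.19 to 10.44.

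SERPINA6 had the lowest p of the comparison. It encodes corticosteroid-binding globulin, the plasma carrier of cortisol and progesterone. Its log2 levels were 10.16, 10.21 and 10.17 in siCt EtOH and 9.24, 9.18 and 8.99 in siCHD8 EtOH. The depleted arrays lay nearly 1 log2 unit below controls that differed by little among themselves. The signal fell to 48.5% of the control, a log2 difference of -1.04 (SE 0.11, 95% interval -1.27 to -0.82, adjusted p = 0.00152 by limma). Of the 11 SERPINA genes measured it alone was called. SERPINA1, which encodes alpha-1-antitrypsin and lies in the same gene cluster, had a log2 difference of -0.32 (adjusted p = 0.193), and SERPINA3 one of 0.08.

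The stretch of the SERPINA6 promoter that holds a match to the ATF4 element letters TGATGNAA is shown because SERPINA6 leads the comparison. It is taken from RefSeq (GRCh38.p14, chr14:94323527-94323586, minus strand), in front of the annotated start of the gene, with the match in capitals.
SERPINA6: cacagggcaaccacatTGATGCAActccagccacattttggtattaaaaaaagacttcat
The match begins at position -234 counted back from the start. Within the 250 bases before the start, TGATGNAA on either strand was found in 2 of 28 genes called lower with a promoter sequence (SERPINA6 and SLC1A5), in 0 of 19 called higher, and in 3.12% of 14240 measured genes.

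Other secreted and surface proteins were called lower with SERPINA6. UPK3B and UPK2 encode uroplakins, membrane proteins best known from the bladder lining. UPK3B had log2 levels of 8.08, 8.13 and 8.32 in siCt EtOH and of 7.23, 7.36 and 7.43 in siCHD8 EtOH (log2 difference -0.83, SE 0.11, adjusted p = 0.00514 by limma). UPK2 went from 6.43, 6.47 and 6.79 to 5.70, 5.78 and 5.99 (log2 difference -0.74, adjusted p = 0.041). Neither gene's groups overlapped. Of the 5 uroplakin genes, a list drawn up after these values were seen, 2 fell and 3 did not pass the test, UPK1A among them with a log2 difference of -0.35. LGALS1, the lectin galectin-1, was bright and went from 9.68, 9.64 and 9.85 to 8.89, 8.89 and 9.23 (log2 difference -0.72, adjusted p = 0.0213). SULF1, a secreted enzyme that trims heparan sulfate, had a log2 difference of -0.72, ADGRE5, the adhesion receptor CD97, one of -0.71, and CXCL16, a chemokine, one of -0.60. Of the 6 fits that left out a vehicle array, UPK3B kept its call in 6, ADGRE5 in 3, LGALS1 in 2, and UPK2, SULF1 and CXCL16 in 1 each.

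Targets of the estrogen receptor, the transcription factor that marks luminal breast cells, gave 1 call. STC2, the secreted glycoprotein stanniocalcin-2, had log2 levels of 6.38, 6.29 and 6.54 in siCt EtOH and of 5.97, 5.69 and 5.53 in siCHD8 EtOH (log2 difference -0.67, SE 0.12, adjusted p = 0.0366 by limma). It was called among 19 measured targets. Of these 19, 16 had a lower mean after depletion, with a median log2 difference of -0.12. Over all 18418 genes, each taken at its brightest probe set, 51.0% were lower and the median was -0.005. SIAH2, a ubiquitin ligase, was at -0.42 (adjusted p = 0.148), PGR, the progesterone receptor, at -0.19 (adjusted p = 0.522), and MYBL1 at 0.35 (adjusted p = 0.254). SCUBE2, a secreted protein outside that list that is also typical of estrogen receptor-positive tumours, was called, going from 8.16, 8.37 and 8.28 to 7.77, 7.73 and 7.33 (log2 difference -0.66, adjusted p = 0.0498). ZNF703, a luminal transcriptional repressor, had a log2 difference of -0.52 (adjusted p = 0.0498). STC2 stayed called in 1 of the 6 fits that left out a vehicle array, and SCUBE2 and ZNF703 in 0 of them.

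The called gene with the largest fall was VGLL1, a cofactor of the TEAD transcription factors. Its log2 levels were 4.79, 4.50 and 4.40 in siCt EtOH and 4.01, 3.26 and 3.18 in siCHD8 EtOH. The depleted replicate 1 sat between the other depleted arrays and the controls. The log2 difference was -1.08 (SE 0.19, 95% interval -1.48 to -0.68, adjusted p = 0.029 by limma), and the gene stayed called in 1 of the 6 fits that left out a vehicle array. Other genes of transcription and nuclear structure were RUVBL1, TLE5, ERCC3, GEMIN4, SUMO3 and H1-3. RUVBL1, an ATPase of the NuA4 and INO80 chromatin complexes, went from 7.28, 7.21 and 7.19 to 6.63, 6.43 and 6.68 (log2 difference -0.65, adjusted p = 0.0192). Its partner RUVBL2 was at -0.39 (adjusted p = 0.185). GEMIN4, a member of the SMN complex that assembles splicing particles, was nearly constant in siCt EtOH at 5.34, 5.34 and 5.35 and fell to 4.61, 4.61 and 4.43 (log2 difference -0.79, adjusted p = 0.0155). ERCC3, the XPB helicase of the transcription factor TFIIH, had a log2 difference of -0.59 and TLE5, a corepressor related to Groucho, one of -0.64 (both adjusted p = 0.0498). Of the lists that hold these genes, also drawn up after the values were seen, RUVBL1 fell and MEAF6 rose among 18 NuA4 and INO80 genes, GEMIN4 fell among 8 SMN complex genes, ERCC3 fell among 9 TFIIH genes and H1-3 among 7 linker histone genes. GEMIN4 kept its call in 4 of the 6 fits that left out a vehicle array, RUVBL1 in 3, ERCC3 and H1-3 in 1 each, and TLE5 and SUMO3 in 0.

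Some of the called genes encode metabolic enzymes or transporters. ISYNA1, the rate-limiting enzyme of inositol synthesis, had log2 levels of 7.35, 7.45 and 7.75 in siCt EtOH and of 6.59, 6.68 and 6.63 in siCHD8 EtOH (log2 difference -0.88, SE 0.11, adjusted p = 0.00514 by limma). ASS1, argininosuccinate synthase of arginine synthesis, went from 8.18, 8.20 and 8.09 to 7.35, 7.39 and 7.56 (log2 difference -0.72, SE 0.10, adjusted p = 0.00984). Both were well separated from the controls. SLC7A5, the light chain of the large neutral amino acid transporter, went from 10.01, 10.08 and 10.22 to 9.54, 9.58 and 9.45 (log2 difference -0.58, adjusted p = 0.0327). SLC1A5, the glutamine transporter, had a log2 difference of -0.56 (adjusted p = 0.0498), and its second, dimmer probe set one of -0.42 (adjusted p = 0.304). SLC23A1, a vitamin C transporter, had a log2 difference of -0.57 (adjusted p = 0.042). The calls of these 3 transporters were lost whichever vehicle array was left out, while ASS1 kept its call in 5 of the 6 fits. In a list of 23 amino acid transporters assembled afterwards, SLC7A5 and SLC1A5 fell, SLC7A1, the arginine transporter, was at -0.54 (adjusted p = 0.069), and the median was 0.006. SAT1 moved the other way. It encodes the acetyltransferase that starts polyamine breakdown, and its log2 levels of 7.61, 7.71 and 7.66 rose to 8.61, 8.36 and 8.44 (log2 difference 0.81, SE 0.11, adjusted p = 0.00929). Among 19 polyamine and arginine genes, a list also assembled afterwards, SAT1 rose, ASS1 fell, and 17 did not pass the test, among them AMD1 at -0.50 and ODC1 at -0.25.

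RRAGD and DEPTOR rose. Rag GTPases recruit the mTORC1 kinase to the lysosome when amino acids are present, and RRAGD is 1 of the 4 Rag genes. DEPTOR encodes an inhibitory subunit of both mTOR complexes. RRAGD had replicates close to each other, 5.89, 5.84 and 5.90 in siCt EtOH against 6.66, 6.67 and 6.65 in siCHD8 EtOH (log2 difference 0.79, SE 0.09, 95% interval 0.59 to 0.98, adjusted p = 0.00401 by limma). DEPTOR went from 5.42, 5.58 and 5.56 to 6.68, 6.46 and 6.24 (log2 difference 0.94, SE 0.12, 95% interval 0.68 to 1.19, adjusted p = 0.00514). They were the 2 genes called among 28 measured Rag and mTOR regulators. That list was chosen with both rises known, so its counts are not independent of them. The list had 11 members (39.3%) with an unadjusted p under 0.05 by limma, 2 of them lower, against 12.2% of all genes. Its median was 0.01, and members lay on both sides: SESN1, a sestrin, at 0.57 (adjusted p = 0.0826), LAMTOR3 at 0.54, the mTORC2 subunit RICTOR at 0.46 (adjusted p = 0.112), LAMTOR4 at -0.48 and DDIT4, a stress-induced mTORC1 inhibitor, at -0.57 (adjusted p = 0.136). Of the other Rag genes, RRAGC was at 0.19 (adjusted p = 0.543), and RRAGA and RRAGB were at -0.07 and -0.10.

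GPNMB, a lysosomal and melanosomal glycoprotein, had the largest rise of the called genes. Its log2 levels were 8.46, 8.50 and 8.06 in siCt EtOH and 9.43, 9.16 and 9.39 in siCHD8 EtOH, so the control replicate 3 was the lowest and the depleted arrays were close together. The log2 difference was 0.99 (SE 0.13, 95% interval 0.70 to 1.27, adjusted p = 0.00881 by limma). It was the 1 called gene among 26 measured MiT/TFE factors and lysosomal genes. CTSA, the lysosomal carboxypeptidase, was at 0.38 (adjusted p = 0.112), NEU1 at 0.30, HEXA at -0.32, and the factors MITF, TFEB and TFE3 at -0.17, -0.10 and -0.19, with a list median of 0.04. CREBRF, a regulator of the unfolded protein and nutrient responses, went from 3.71, 3.95 and 3.73 to 4.80, 4.74 and 4.55 (log2 difference 0.90, adjusted p = 0.0137). DNAJB9, an endoplasmic reticulum cochaperone, went from 4.87, 5.22 and 4.83 to 5.75, 5.71 and 5.51 (log2 difference 0.68, adjusted p = 0.0348). With each vehicle array left out CREBRF kept its call in 3 of 6 fits and DNAJB9 in 2. DNAJB9 was the 1 called gene of 20 in the unfolded protein and ATF4 list, whose median was 0.02. In the same list DDIT3, which encodes CHOP, had a log2 difference of 0.93 (SE 0.19, adjusted p = 0.062), the chaperone HSPA5 one of 0.40 (adjusted p = 0.187) and ATF4 itself one of -0.23.

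Promoter stretches with the E-box CACGTG, the core of the element bound by MiT/TFE factors and also by MYC, are shown for called genes of nutrient use in both directions, and the stretch of GPNMB for its match to the AP-1 letters TGANTCA. All are from RefSeq (GRCh38.p14), 5′ to 3′ on the strand of the gene and ending before its annotated start, with matches in capitals. They lie at chr5:173056202-173056351 (plus, CREBRF), chr16:87869605-87869664 (minus, SLC7A5), chr9:130444863-130444922 (plus, ASS1) and chr7:23246614-23246673 (plus, GPNMB).
CREBRF: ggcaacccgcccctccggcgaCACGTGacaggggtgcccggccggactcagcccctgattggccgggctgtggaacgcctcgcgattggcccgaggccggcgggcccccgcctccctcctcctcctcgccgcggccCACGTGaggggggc
SLC7A5: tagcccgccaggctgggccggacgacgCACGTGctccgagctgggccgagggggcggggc
ASS1: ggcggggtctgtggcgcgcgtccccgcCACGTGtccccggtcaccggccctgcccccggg
GPNMB: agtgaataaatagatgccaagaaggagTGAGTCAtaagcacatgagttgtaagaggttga
CREBRF, which rose, holds 2 E-boxes, and SLC7A5 and ASS1, which fell, hold 1 each. Promoter sequences were matched for 47 of the 60 called genes with 1 symbol. In the 250 bases before the start, CACGTG was found in 2 of 19 genes called higher (10.5%), in 5 of 28 called lower (17.9%) and in 9.8% of all 14240. TGANTCA was found in 15.8%, 3.57% and 7.06%, and the TCF/LEF letters CTTTGA in 10.5%, 10.7% and 12.7% in the same order. The E2F letters TTTNGCGC and the letters of the progestin response element were in 0 of the called genes with a sequence, against 2.49% and 0.358% of all. Both strands were searched, and the counts are too small to set the called genes apart.

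Further genes were called higher. NREP, a neuronal regeneration-related protein, went from 6.66, 6.77 and 6.80 to 7.69, 7.33 and 7.37 (log2 difference 0.72, adjusted p = 0.0173 by limma). CRYM, which binds thyroid hormone in the cytosol, went from 5.07, 4.91 and 4.87 to 5.72, 5.60 and 5.73 (log2 difference 0.73, adjusted p = 0.0124). MEAF6, a subunit of NuA4 and other histone acetyltransferases, went from 6.85, 6.83 and 6.76 to 7.63, 7.42 and 7.48 (log2 difference 0.70, adjusted p = 0.00881). Each of these had depleted arrays clear of the controls. The membrane proteins PLXDC2, NAALADL2 and CD9, a tetraspanin, and NPNT, an integrin ligand of the extracellular matrix, had log2 differences of 0.77, 0.74, 0.68 and 0.67. Their adjusted p-values by limma were 0.0173, 0.0155, 0.0498 and 0.0173. With 1 vehicle array left out, NAALADL2 kept its call in 5 of 6 fits, PLXDC2 and NPNT in 2 each, and CD9 in 1. ENC1, an actin-binding protein known as a beta-catenin target, had a log2 difference of 0.80 (adjusted p = 0.0137). DICER1, which cuts miRNA precursors, went from 7.52, 7.61 and 7.17 to 8.15, 7.97 and 8.09 (log2 difference 0.64, adjusted p = 0.0421) and was the 1 called gene of 10 in a list of miRNA machinery assembled afterwards, with its call kept in 1 of the 6 fits that left out a vehicle array. RPSA2 had a log2 difference of 0.95 (adjusted p = 0.042 by limma) on dim levels of 2.95 to 4.43, and kept its call in 1 of these 6 fits. It belongs to a family of near-identical ribosomal protein SA copies, so its value is uncertain.

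**Figure D3:**
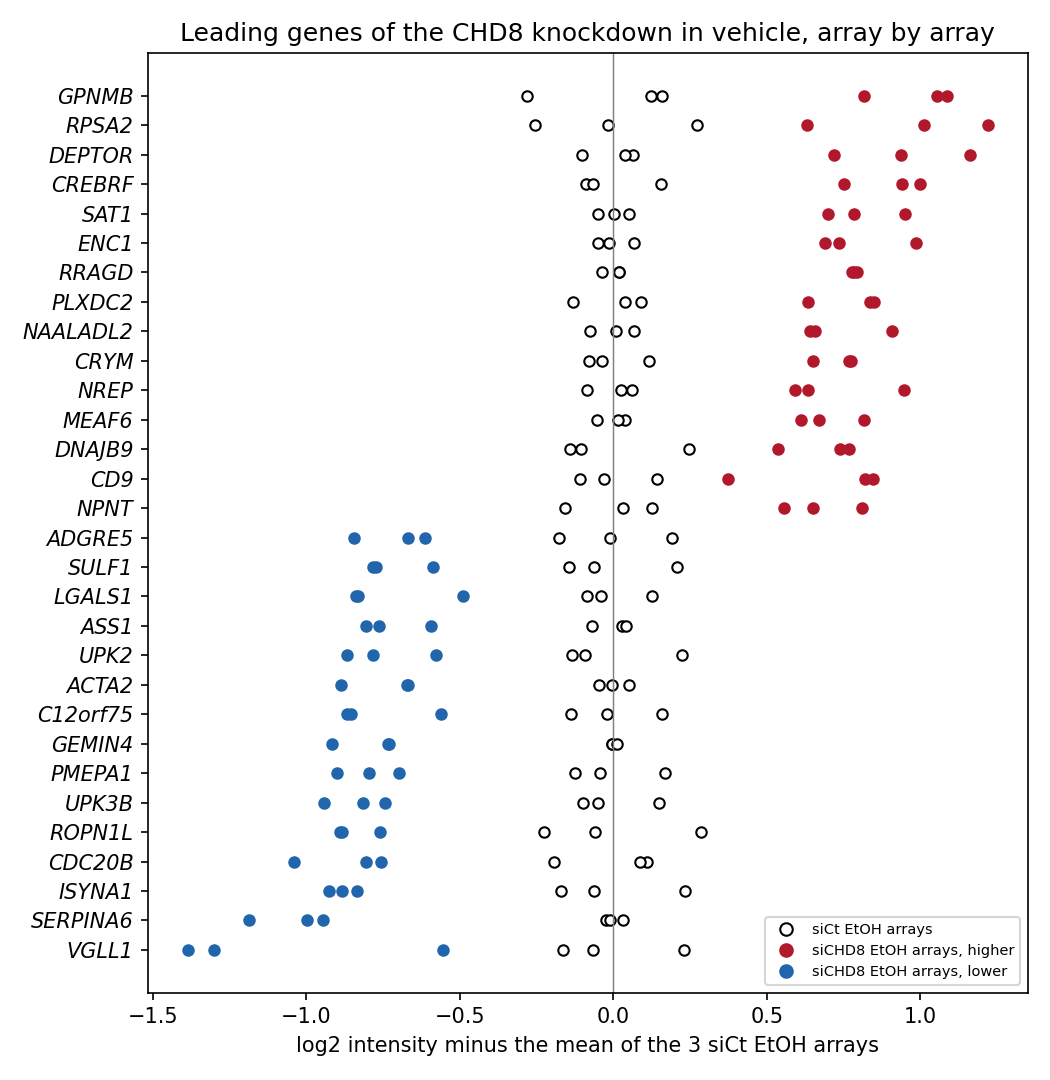
Log2 intensity minus the mean of the 3 siCt EtOH arrays (horizontal axis) for the 15 called genes with the largest rises and the 15 with the largest falls (vertical axis); open circles are siCt EtOH arrays, red and blue circles siCHD8 EtOH arrays. The siCHD8 arrays of every gene lie on 1 side of its siCt arrays, tightly for RRAGD and widely for VGLL1.

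Cell cycle genes were examined because CHD8 is known for E2F-driven transcription. CDC45, a part of the replicative helicase, went from 5.92, 6.04 and 5.86 to 5.39, 5.29 and 5.36 (log2 difference -0.59, SE 0.11, adjusted p = 0.0498 by limma). CDC20, the activator of the anaphase-promoting complex, went from 7.56, 7.60 and 7.60 to 6.89, 7.09 and 7.09 (log2 difference -0.56, SE 0.11, adjusted p = 0.0498). Both calls were lost whichever of the 6 arrays was left out. CDC20B, a relative of CDC20 outside the cell cycle lists, had a log2 difference of -0.87 (SE 0.12, adjusted p = 0.00929).

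Of 35 measured G1/S and DNA replication genes CDC45 fell and 34 did not pass the test, and 28 had a lower mean in siCHD8 EtOH, with a median log2 difference of -0.16. The transcription factor E2F1 was at -0.45 (adjusted p = 0.127 by limma), thymidylate synthase TYMS at -0.44 (adjusted p = 0.212) and the cyclin gene CCNE2 at -0.37 (adjusted p = 0.172). The mean log2 level of the list was 5.94, 6.04 and 5.95 on the siCt EtOH arrays and 5.89, 5.82 and 5.71 on the siCHD8 EtOH arrays, so the groups did not overlap but replicate 1 of siCHD8 came close. On the 6 R5020 arrays, which do not enter the vehicle difference, 34 of the 35 genes (97.1%) were lower after depletion (median -0.34). Over all genes 48.7% were lower in R5020, with a median of 0.007, and 51.0% were lower in vehicle. In a limma fit of those R5020 arrays alone, 25 (71.4%) were lower at an unadjusted p under 0.05, against 12.1% of all genes. The cell cycle lists were chosen with earlier results of these data known. The 25 measured mitosis genes gave 1 call (CDC20), 18 lower means and a median of -0.12 in vehicle, and 25 lower means and a median of -0.36 in R5020. Here the vehicle arrays overlapped. The list's mean level was 6.56, 6.76 and 6.44 in siCt EtOH and 6.67, 6.39 and 6.35 in siCHD8 EtOH. The median became -0.35 without siCt EtOH replicate 3 and siCHD8 EtOH replicate 1, and -0.06 without siCt EtOH replicate 2. CDK1, the mitotic kinase, was at 0.48 in vehicle (SE 0.26, 95% interval -0.07 to 1.02) and at -0.36 in R5020.

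Among 19 targets of Wnt/beta-catenin signalling 0 were called (limma), 6 (31.6%) had an unadjusted p under 0.05, against 12.2% of all genes, and the median log2 difference was 0.06. Of these 6, 3 were lower and 3 higher. The list does not hold ENC1, the beta-catenin target called higher with a log2 difference of 0.80. CCND1, the cyclin D1 gene, had log2 levels of 7.60, 7.72 and 8.00 in siCt EtOH and of 7.30, 7.34 and 7.12 in siCHD8 EtOH (log2 difference -0.52, SE 0.12, adjusted p = 0.0757). MYC was at -0.36 (adjusted p = 0.18), while LEF1 and RNF43 were at 0.38 and 0.37. Among 22 p53 targets 0 were called and the median was 0.09. An unadjusted p under 0.05 was found for 4 of them, all higher, while 8 of the 22 had a lower mean. The highest was SESN1 at 0.57, followed by PLK2 at 0.52 (adjusted p = 0.108), and the lowest was MDM2 at -0.28 (adjusted p = 0.485). Of 22 progestin and glucocorticoid receptor targets 0 were called, and 0 reached an unadjusted p under 0.05 in these cells without hormone. Among the genes the study followed by PCR, HSD11B2, the enzyme that inactivates cortisol, was at 0.22 (95% interval -0.04 to 0.47), IL6ST, the gp130 receptor chain, at 0.24 (-0.04 to 0.52), the phosphatase DUSP1 at 0.17 (-0.10 to 0.43) and NFE2L3 at -0.16 (-0.64 to 0.32). FKBP5 is annotated only on probe sets that list several genes and is given no value. FOXA1, the pioneer factor of luminal cells, was at -0.13 (-0.39 to 0.13), and the SWI/SNF ATPases SMARCA4 and SMARCA2 at -0.13 (-0.36 to 0.10) and 0.15 (-0.13 to 0.43). The 18 SWI/SNF genes had 0 calls and a median of -0.04.

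ACTA2, smooth muscle actin, was the 1 called gene of 14 measured basal and mesenchymal markers, and went from 6.56, 6.46 and 6.50 to 5.83, 5.84 and 5.62 (log2 difference -0.74, adjusted p = 0.0203 by limma), with its call kept in 1 of the 6 fits that left out a vehicle array. PMEPA1, a target and inhibitor of TGF-beta signalling, fell with a log2 difference of -0.80 (adjusted p = 0.0416), but its call was lost whichever array was left out. The 19 measured TGF-beta pathway genes, a list that does not hold PMEPA1, had 0 calls in vehicle and a median of -0.10. An unadjusted p under 0.05 by limma was found for 4 (21.1%), all lower, against 12.2% of all genes. In a limma fit of the R5020 arrays alone, 8 (42.1%) were lower at an unadjusted p under 0.05, against 12.1% of all genes. ROPN1L and C12orf75 were also called lower in vehicle, with log2 differences of -0.84 and -0.76 (each adjusted p = 0.0124 by limma). ROPN1L kept its call in 4 of the 6 fits that left out a vehicle array, and C12orf75 in 5. On the R5020 arrays their log2 differences were -0.78 (adjusted p = 0.0237 by limma) and -0.69 (adjusted p = 0.0261). In all, 22 of the 30 gene lists had no called member. These were the CHD family, SWI/SNF, MLL/COMPASS, Wnt, p53, progestin and glucocorticoid targets, steroid receptors and coregulators, the BCL2 family, insulin and IGF signalling, the TGF-beta pathway, immediate early genes, interferon response, heat shock, cholesterol and fatty acid synthesis, hypoxia and glycolysis, metallothioneins, integrins with cadherins and junctions, HOX genes, the luminal, fibroblast and blood markers, and the genes of the study's expression experiments. Their medians lay between -0.13 and 0.12, and 12.8% of their 374 memberships had an unadjusted p under 0.05 by limma, against 12.2% of all genes. The share differed between these lists, and was 31.8% (7 of 22) for the luminal markers.

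**Figure D4:**
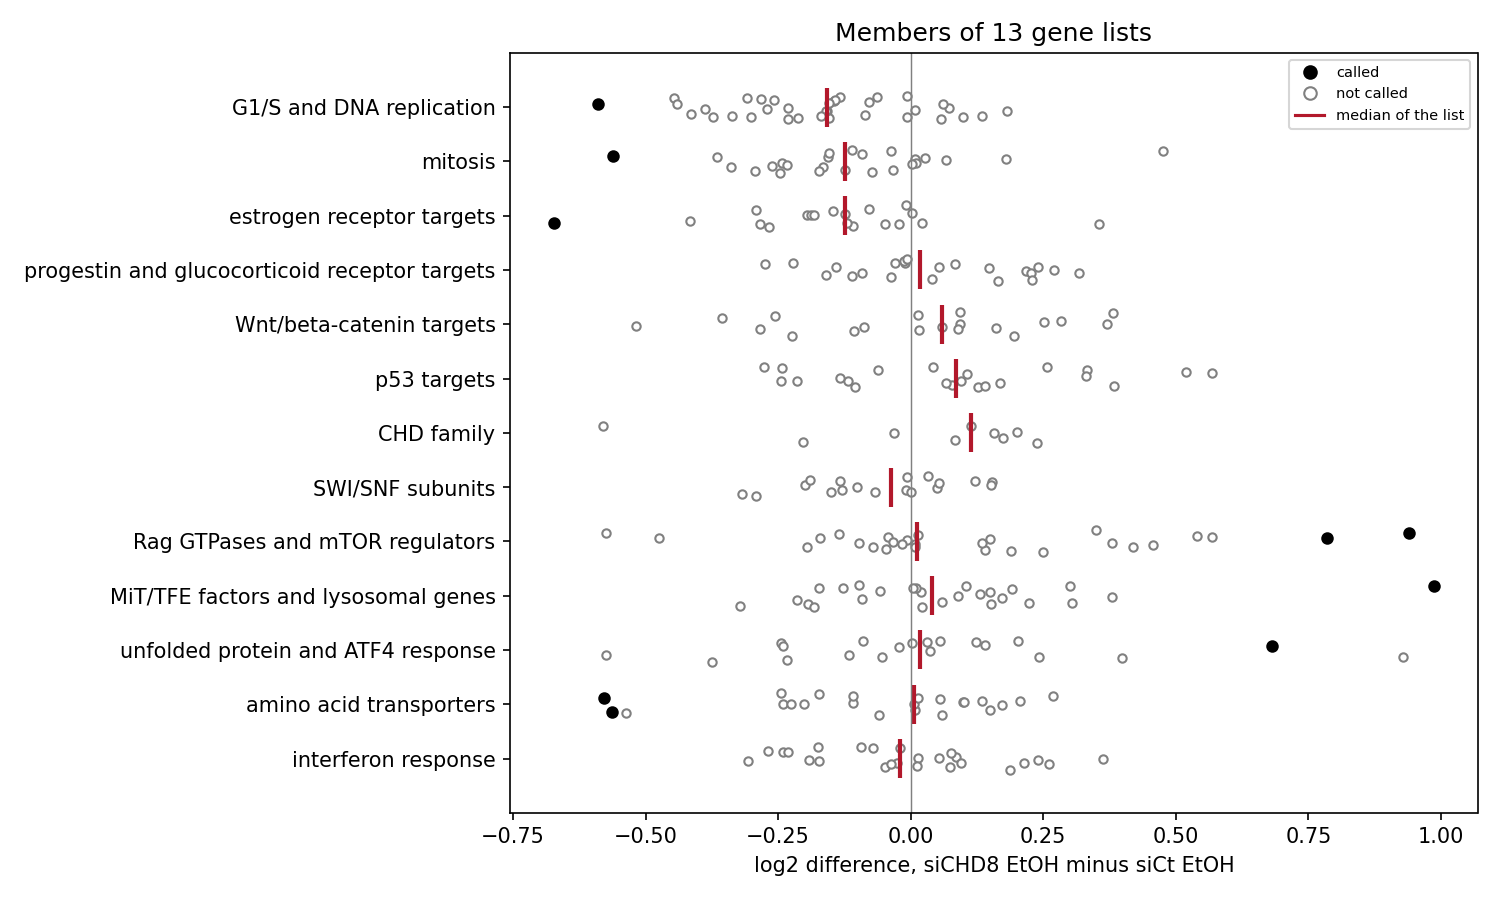
Log2 difference, siCHD8 EtOH minus siCt EtOH (horizontal axis), of each member of 13 gene lists (vertical axis, points spread to be visible); filled points are called, open points are not, and red bars are list medians. The medians of the G1/S, mitosis and estrogen receptor lists lie at -0.16, -0.12 and -0.12, and those of the other lists drawn are closer to 0.

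The called genes were also compared on the R5020 arrays, none of which enter the vehicle difference. The spread behind the calls was estimated over all 12 arrays, which favours probe sets with little spread in R5020, so the shares below are a description and the values over all probe sets are not what these 62 would show without a difference. In the 12-array fit siCHD8 and siCt differed in R5020 for 40 probe sets (0.189%), and a fit of the 6 R5020 arrays alone called 204 (0.962%). Of the 62 probe sets called in vehicle, 57 (91.9%) had the same sign in R5020, against 53.6% of all probe sets. In the R5020 arrays alone 15 of the 62 were called, and 47 (75.8%) had an unadjusted p under 0.05 by limma, against 21.4% of all probe sets. The differences were smaller in R5020 for 57 of the 62, as choosing on the vehicle values favours. The median log2 difference went from 0.69 to 0.27 for those higher and from -0.69 to -0.40 for those lower.

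Individual genes spread widely around these medians. SERPINA6 had nearly the same difference in both treatments. With R5020 the control arrays read 9.69, 9.83 and 9.60 and the depleted arrays 8.62, 8.66 and 8.78, a log2 difference of -1.02 (adjusted p = 0.00202 by limma). NREP had a larger difference in R5020, 0.96 (adjusted p = 0.00648), as had ERCC3, with -0.84 (adjusted p = 0.0165). RRAGD had a smaller difference in R5020, in the same direction as in vehicle. Its siCt level was higher in R5020, at 6.38, 6.35 and 6.42, close to its siCHD8 levels of 6.48, 6.55 and 6.47, and the log2 difference was 0.12 (adjusted p = 0.586). For DEPTOR it was 0.29 (adjusted p = 0.291), for ENC1 0.06 and for MEAF6 0.16. The 5 probe sets whose sign turned had R5020 differences near 0: CPTP 0.04, H1-3 0.05, ZNF703 0.10, CD9 -0.03 and ZFYVE16 -0.08.

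A test of the difference between both knockdown effects called 0 probe sets (limma), with a lowest adjusted p of 0.356, while 2027 (9.56%) had an unadjusted p under 0.05. For RRAGD the effect in R5020 minus that in vehicle was -0.67 and for DEPTOR -0.65, both with an adjusted p of 0.49. For SERPINA6 it was 0.02 (adjusted p = 0.97).

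**Figure D5:**
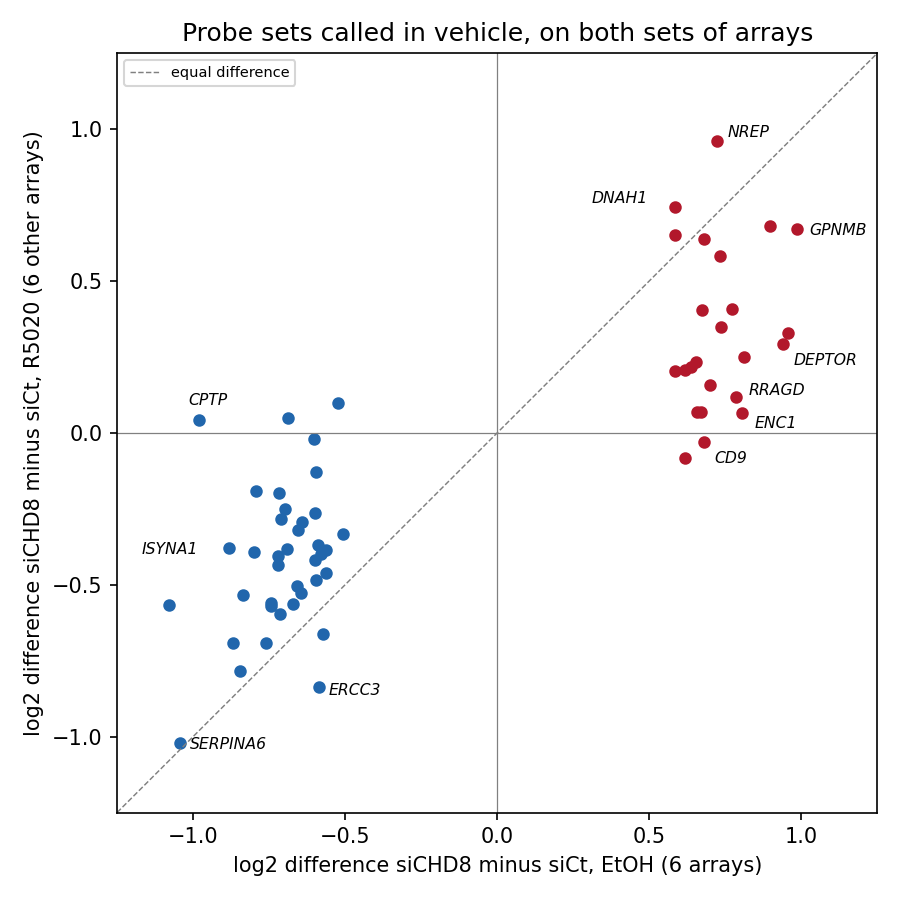
Log2 difference siCHD8 minus siCt on the 6 R5020 arrays (vertical axis) against that on the 6 EtOH arrays (horizontal axis) for the 62 probe sets called in vehicle, red where higher and blue where lower in vehicle; the dashed line marks equal differences. SERPINA6 lies on the line, NREP and ERCC3 beyond it, and RRAGD and ENC1 near 0 in R5020.

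Some called genes have a second probe set that gave a weaker value. For CPTP, a lipid transfer protein, the called probe set had a log2 difference of -0.98 and a brighter one of -0.28 (adjusted p = 0.349 by limma). For LYPLA2, a lysophospholipase, the called one had -0.60 and the brighter one -0.38 (adjusted p = 0.282). For ALDH1A3, an enzyme of retinoic acid synthesis, the called one had -0.60 and a dimmer one -0.20 (adjusted p = 0.679). For STRADB, a pseudokinase of the LKB1 complex, they had 0.58 and 0.57 (adjusted p = 0.069). Of the 62, 2 carry several symbols, TMEM256-PLSCR3 with PLSCR3 (log2 difference -0.72) and a row shared by GAGE family genes (-0.60), and cannot be assigned to 1 gene.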

How the data were processed

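The authors hybridised RNA to Affymetrix GeneChip Human Gene 1.0 ST arrays, extracted the scans with the GeneChip Command Console and normalized them by RMA, with further processing in oneChannelGUI (versions not given in the sources used here). The deposited values are log2 intensities and were used as they stand; 0 columns of samples were left unused. RMA brings arrays close to a common distribution (array medians here from 4.52 to 4.62), so a shift of most genes could be missed, and the number of arrays limits the precision.

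Of 33297 rows, 19461 pair with 1 gene symbol and 1753 with several in GEO's platform annotation; these 21214 were tested and 12083 without a symbol left out. Of the 21214 rows tested, 703 hold values identical to those of another tested row. In R 4.3.3, limma 3.58.1 estimated the mean of each condition over the 12 arrays jointly and moderated the variances (eBayes), with Benjamini-Hochberg adjustment, and called means an adjusted p under 0.05. Intervals are 95%. Simulated knockdown changes in vehicle, over 21214 rows, gave the sensitivity of the fit. It recovered 0% of log2 changes of 0.5, 72% of 0.75, 91% of 1.0 and 100% of 2.0. A gene that was not called may therefore still differ by a log2 value of about 0.5. Alternatives were median centring, quantile normalization, dim rows (lowest 25% by mean) left out, all rows, 1 probe set per gene, trended robust variance, array weights, the 6 arrays of a contrast alone, the replicate number as a block, arrays left out, and limma's treat.

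The text names the 15 called genes with the largest rises and falls, marker genes, up to 6 members of each list and the study's PCR genes; others are named for their role or count. The comparison, its genes and the 30 lists were chosen with earlier results of these data known, and 8 lists and the list medians under other settings were added after the values were seen. Replicate numbers recur between conditions, but deviations of same-numbered arrays correlated between -0.247 and 0.196 over 18 pairs, so the numbers were not taken to pair arrays. Tables and figures used Python 3.11.15, pandas 2.3.3 and matplotlib 3.10.9. Some items are not reported here.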

Additional observations from a re-analysis of the deposited data

Results flagged for a closer look

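Rows without a gene symbol lie outside the main test. When all rows of the table were tested together, 3 of them were called in vehicle, with log2 differences of -0.741, -0.731 and 0.783 (each adjusted p = 0.045 by limma). The first is bright, with log2 levels of 8.84, 8.74 and 9.03 in siCt EtOH and of 8.02, 8.14 and 8.22 in siCHD8 EtOH. The other two lie between 1.47 and 2.68, near the dim end of the arrays. No gene is named for these rows here. With 3 arrays in each group, the search for a value far from its group (Dixon's test) was not run gene by gene.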

How the results depend on the processing

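Counts of calls depended strongly on the setting. Against 62 called in vehicle (24 higher, 38 lower), 10 past the study's limits, 40 called in R5020 and 57 of the vehicle calls with the same sign there, median centring gave 42 in vehicle with 22 lower. Quantile normalization gave 94 (45 higher), 17 past the study's limits, 26 in R5020 and 91 with the same sign. Leaving out dim probe sets gave 111 (38 higher, 73 lower), 77 in R5020 and 102 with the same sign. Testing all rows gave 15 (7 higher, 8 lower), 0, 2 and 14. With 1 probe set per gene 73 were called in vehicle and 64 in R5020. A trended and robust variance gave 169 (60 higher, 109 lower), 27, 121 and 152. Array weights gave 32 (16 higher, 16 lower), 3, 916 and 32. The 6 arrays of each contrast alone gave 0 in vehicle, 0 higher, 0 lower, 0 past the limits and hence 0 with the same sign, and 204 in R5020. A fit without both the third siCt EtOH array and the first siCHD8 EtOH array gave 37 (10 higher), 0, 280 and 35. Limma's treat against a fold of 1.5 gave 0. The cause of these shifts was not tested.

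With the replicate number as a replicate block, the calls in vehicle were 20 (10 higher, 10 lower), all 20 of them among the 62. This fit gave 1 past the study's limits, 5 called in R5020 and 20 with the same sign. The numbers were not taken to pair the arrays, but same-numbered pairs were not compared with differently numbered ones.

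Leaving out each of the 12 arrays in turn gave 12 to 53 called in vehicle (5 to 27 higher, 7 to 28 lower), 0 to 2 past the study's limits, 1 to 105 in R5020, 12 to 46 with the same sign and 0 to 1 for the difference between treatments. The log2 difference of CHD8 ran from -0.70 to -0.50; it passed an adjusted p of 0.05 without siCHD8 EtOH replicate 1, under quantile normalization (-0.59), and, at -0.58, without dim probe sets and with the trended variance. For the 30 leading genes, 329 of 480 values under the alternatives stayed past the threshold, 151 did not, and 0 changed sign.

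Of 38 list medians, 16 kept their sign under both scalings and with each vehicle array left out, the G1/S, mitosis and estrogen receptor lists among them, which with each vehicle array left out ranged from -0.20 to -0.13, -0.24 to -0.06 and -0.20 to -0.10.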
